A study of Mus musculus with 4 samples.

Results

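The unfolded protein response (UPR) is read here through 10 genes in matrix-secreting skeletal cells of Lats2iECKO mutant and control mice. The members are Hspa5, Hsp90b1, Pdia4, Sdf2l1, Creld2, Manf, Dnajb9, Xbp1, Atf4 and Ddit3, found by their symbols. They take up 11 of the 53703 features in the count files, because Ddit3 has a pair of overlapping gene entries, which were summed. The longer entry held 88.8% of the summed Ddit3 counts and the shorter one 11.2%. Genotypes were compared in 5 matrix-secreting classes, namely osteoblast-like cells (OB-like) and 4 zones of chondrocyte-like cells (CHO-like), and in 5 other stromal classes.

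The study profiled long bone metaphysis from femur and tibia of mice at postnatal week 12 by droplet-based single-cell RNA sequencing. Cells carrying lineage markers, CD45 or CD117 were removed before capture, so that stromal cells were enriched. The 2 Lats2iECKO libraries came from mice with loxP-flanked Lats2 alleles and the Cdh5(PAC)-CreERT2 transgene, in which tamoxifen starts recombination in endothelial cells (ECs). The 2 control libraries came from Cre-negative littermates, which had received the same tamoxifen, although their treatment is labelled untreated. A Cdh5(PAC)-mT/nG reporter had also been bred in. Because the driver is an endothelial promoter, the matrix-secreting cells were not the intended target of recombination. Nothing in the sources states how many animals gave each library, so p-values measure the spread between libraries only.

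The UPR begins when unfolded proteins draw the chaperone BiP, encoded by Hspa5, away from its sensors in the endoplasmic reticulum (ER). ATF6 moves to the Golgi and is cut into a transcription factor, IRE1 splices the mRNA of Xbp1, and PERK phosphorylates eIF2α, which slows translation in general but favours that of Atf4. ATF6 and spliced XBP1 raise chaperones and folding enzymes, whereas ATF4 raises genes of amino acid supply and, under lasting stress, Ddit3, which encodes CHOP. Osteoblasts and growth plate chondrocytes depend on this machinery because they export large amounts of collagen. UMI counts near the 3′ end do not show the splicing of Xbp1, nor do they show protein or phosphorylation.

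Of the 10 members, 9 had a promoter entry from RefSeq (GRCm38.p6), and Manf had none. The 250 bases before each start were searched on both strands for 4 motifs. The ER stress response element (ERSE), to which ATF6 and NF-Y bind, reads CCAAT, any 9 bases, then CCACG. It was found in 3 of 9 member promoters, those of Hspa5, Hsp90b1 and Creld2, and in 37 of all 32851 promoters (0.113%). ERSE-II (ATTGG, any base, CCACG) and the UPRE core (TGACGTGG) were found in no member promoter, against 0.0304% and 0.563% of all. The ATF4 composite element (TGATGNAA) was likewise absent from these windows and present in 3.45% of all promoters. The 3 promoters are shown up to the base before the start because they carry the element, which is in capitals. Hspa5 has it on its own strand, Creld2 on the opposite strand, and Hsp90b1 once on each.
Hspa5, chr2:34771930-34772089, + strand: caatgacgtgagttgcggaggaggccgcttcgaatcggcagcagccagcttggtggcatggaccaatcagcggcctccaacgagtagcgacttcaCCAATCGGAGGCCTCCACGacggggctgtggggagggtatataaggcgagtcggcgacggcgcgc
Hsp90b1, chr10:86705445-86705684, - strand: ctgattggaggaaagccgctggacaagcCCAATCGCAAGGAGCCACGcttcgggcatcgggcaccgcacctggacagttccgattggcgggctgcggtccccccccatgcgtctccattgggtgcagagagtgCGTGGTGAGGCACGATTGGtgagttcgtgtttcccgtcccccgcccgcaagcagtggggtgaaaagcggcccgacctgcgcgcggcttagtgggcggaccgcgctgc
Creld2, chr15:88819486-88819645, + strand: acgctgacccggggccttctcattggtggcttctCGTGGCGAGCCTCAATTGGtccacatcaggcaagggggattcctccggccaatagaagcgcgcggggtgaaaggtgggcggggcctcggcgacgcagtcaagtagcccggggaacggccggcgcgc

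In the annotation of GRCm39, the chaperone genes lie at chr2:34661982-34668880 (Hspa5, + strand) and chr10:86526073-86541446 (Hsp90b1, - strand), and the disulfide isomerase gene Pdia4 at chr6:47770077-47790462 (- strand). The genes of the BiP cofactors and secreted ER factors lie at chr16:16948002-16950252 (Sdf2l1, - strand), chr15:88703795-88710890 (Creld2, + strand), chr9:106715511-106769727 (Manf, - strand) and chr12:44252341-44257171 (Dnajb9, - strand). The transcription factor genes lie at chr11:5470606-5483027 (Xbp1, + strand), chr15:80139372-80141745 (Atf4, + strand) and chr10:127124268-127132163 (Ddit3, + strand). All are protein coding, and counting covered exons and introns.

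The libraries held 69636600 to 85899079 UMIs, and 5749 and 6703 barcodes of mutants and 7606 and 7649 of controls reached 1000 UMIs and 800 genes. Libraries shared 7 to 22 barcodes per pair. After filters on mitochondrial and hemoglobin share and on complexity, 24599 cells remained, and classes were set by marker genes. Each class had all of its markers at 10 CPM and above and some of them among its 10 leading genes (CPM, the counts-per-million scale, divides the UMIs of a gene by the class sum of its library). In superficial-like and prehypertrophic-like CHOs, however, these leading markers were those shared by all CHO-like zones, and none was particular to the zone. The leading genes of superficial-like CHOs held Ucma, a gate marker of resting and columnar-like CHOs. Those of fibroblast-like cells held Angptl7, a gate marker of superficial-like CHOs. Hypertrophic-like CHOs were gated on Col10a1, Ptgs2, Pde11a, Loxl4 and Mmp13, and their leading genes also held H2-Ab1, an antigen presentation gene. Cre-ERT2 was read at 55.6 and 48.7 CPM in mutant EC-like cells against 0.682 and 0.871 in controls. Lats2 was 93 and 97.5 in mutants against 134 and 123 in controls, a log2 fold change of -0.35 ± 0.08 (SE, adjusted p = 0.00611). The summed level of 7 erythroid markers was higher in mutants in each matrix-secreting class, at 442 to 604 CPM against 75.2 to 219, and free RNA was estimated at no more than 3.81% of any class sum. With free RNA subtracted, Ddit3 in superficial-like CHOs was the only member result between genotypes to lose significance in edgeR (adjusted p = 0.0502). Any other part of these shifts in the results was not tested.

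OB-like cells numbered 131 and 149 in mutants and 648 and 682 in controls. Superficial-like CHOs numbered 363 and 434 against 238 and 256, resting and columnar-like CHOs 383 and 397 against 508 and 520, and prehypertrophic-like CHOs 532 and 530 against 488 and 485. Hypertrophic-like CHOs numbered 315 and 287 in mutants but 11 in each control. Levels are given in CPM, and changes as log2 fold changes of mutant over control from edgeR's quasi-likelihood test. A gene was called when its adjusted p, over all genes tested in the class, was at most 0.05.

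Before genotypes were compared, the 10 members were set across classes in the control libraries, to see where the machinery was high. Hspa5 was highest in superficial-like CHOs, at 1431 and 1274 CPM, followed by fibroblast-like cells (1241 CPM ± 17.6, SD, n = 2) and reticular-like cells (1036 CPM ± 1.38, SD, n = 2). Metaphyseal-like cells came next, at 807 and 851 CPM. Resting and columnar-like CHOs (615 CPM ± 9.44) and prehypertrophic-like CHOs (600 CPM ± 22.5) followed, with overlapping values. OB-like cells held 408 and 429 CPM, overlapping with EC-like cells at 416 and 468. Smooth muscle-like cells (361 and 326) and hypertrophic-like CHOs (204 and 331) were lowest and overlapped.

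**Figure D1:**
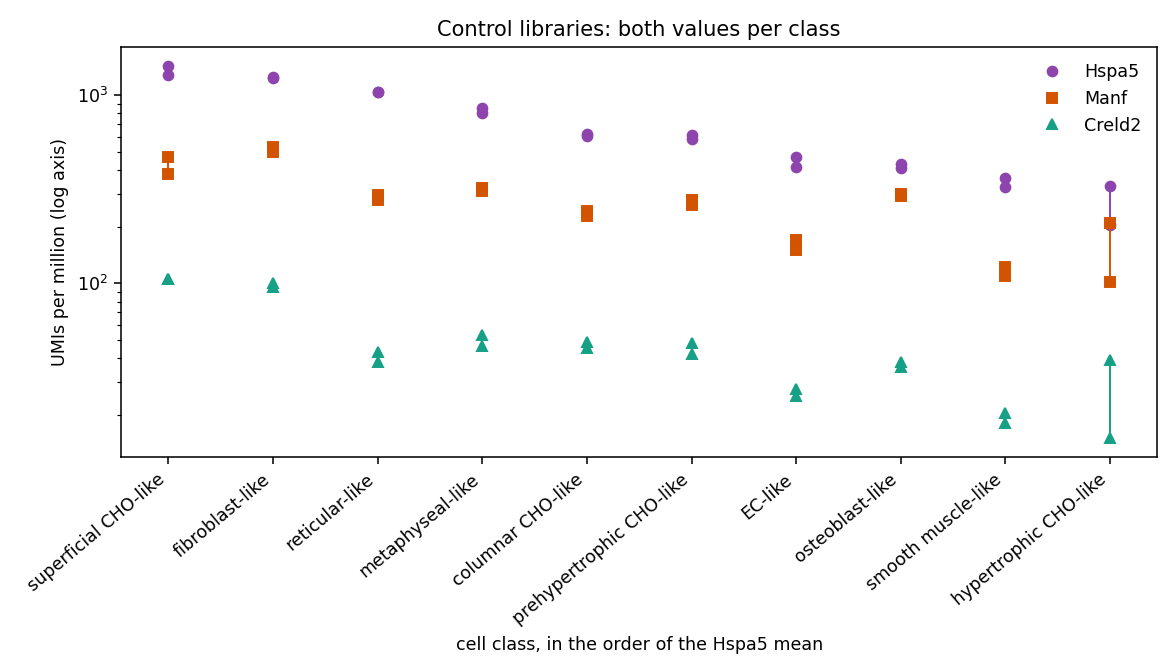
CPM (log axis) of Hspa5, Manf and Creld2 in the 10 classes of the control libraries, with both values of each class as points joined by a line. Classes follow the Hspa5 mean, from 1353 in superficial-like CHOs down to 267 in hypertrophic-like CHOs, whose 2 sums rest on 11 cells each.

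The secreted ER factors were also high in superficial-like CHOs. Manf, a neurotrophic factor of the ER, was 467 and 382 CPM there, below the 499 and 530 of fibroblast-like cells and above the 291 and 297 of OB-like cells. Creld2, a disulfide isomerase-like factor, was at 106 CPM in both superficial-like sums, above the 96 and 101 of fibroblast-like cells and the 35.9 and 38.1 of OB-like cells. Sdf2l1, which assists BiP, was 91.9 and 74.1 CPM in superficial-like CHOs, 27.1 and 27.7 in resting and columnar-like CHOs, and 13.5 and 20.9 in OB-like cells. Dnajb9, a J-domain partner of BiP that restrains IRE1, was 125 and 113 CPM in superficial-like CHOs and between 43.7 and 50.7 in OB-like cells and both middle zones.

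The transcription factors had other orders. Xbp1 was highest in EC-like cells, at 234 and 259 CPM, which overlapped with fibroblast-like cells (236 and 232). Its level was 214 and 183 in superficial-like CHOs and 168 and 173 in OB-like cells. Atf4 was 246 and 234 CPM in superficial-like CHOs, 183 and 177 in OB-like cells and lowest in metaphyseal-like cells (86.5 and 85.1). Ddit3 was 99.8 and 93.7 CPM in resting and columnar-like CHOs and 33.5 and 27.3 in OB-like cells, which overlapped with fibroblast-like cells (31.8 and 26.5).

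Tested in one fit against the mean of the 5 other classes in controls, all 10 members were higher in superficial-like CHOs, where 46.4% of all genes were called in either direction. Creld2 led with a log2 difference of 1.68 ± 0.0793 (SE, adjusted p = 1.07e-14), and Hspa5 stood at 1.24 ± 0.0726 (adjusted p = 7.03e-13). All 10 also stayed higher with library totals alone, where they ranged from Pdia4 at 0.26 to Creld2 at 1.40. In OB-like cells 7 members were called, against 55.1% of all genes. Atf4 (1.52), Manf (1.09) and Xbp1 (1.03) were higher under both scalings, whereas Pdia4 (0.41), Creld2 (0.71) and Dnajb9 (0.61) turned to -0.42, -0.11 and -0.21 with library totals alone. Sdf2l1 was lower at -0.55 ± 0.126 (adjusted p = 6.55e-04) with TMM, the scaling used throughout, which trims the most divergent genes before it sets the library factors. Scaled by library totals alone, Hspa5 (-0.73), Hsp90b1 (-0.72) and Ddit3 (-0.83) were also called lower, which took the count from 6 higher and 1 lower to 3 higher and 6 lower. This scaling moved the median of all genes from -0.07 to -0.88 in OB-like cells.

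In resting and columnar-like CHOs 6 members were called, against 60.2% of all genes. Ddit3 (1.11), Atf4 (0.66), Creld2 (0.50) and Manf (0.21) were higher, and Sdf2l1 (-0.45) and Xbp1 (-0.31) were lower. With library totals alone Manf turned to -0.05, and 3 were higher and 5 lower. Manf also missed the threshold with RLE scaling factors (0.14, adjusted p = 0.172), a stricter cell filter (0.15, 0.137) and Leiden clusters in place of the gates (0.1, 0.17). In prehypertrophic-like CHOs 5 members were called, against 59.6% of all genes. Ddit3 (0.68), Atf4 (0.60), Creld2 (0.55) and Manf (0.51) were again higher, and Sdf2l1 (-0.31) was lower. With library totals alone Manf stood at 0.14 and did not pass (adjusted p = 0.132), while Hspa5 (-0.21), Hsp90b1 (-0.38), Pdia4 (-0.27), Dnajb9 (-0.31) and Xbp1 (-0.50) were called lower, so that 3 were higher and 6 lower. The median of all genes moved from -0.01 to -0.38 there. Sdf2l1 did not pass with a wider hypertrophic gate on Col10a1 (-0.20, adjusted p = 0.181). In hypertrophic-like CHOs 2 were called, against 10.1% of all genes, with Hspa5 and Hsp90b1 both at -1.24, on 22 cells in all and with a median of all genes at -0.75.

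Mutants were then compared with controls within each class. OB-like cells of the mutants held less of several ER-resident members and more Ddit3. Of the 10 members, 3 were lower (1.38% of all genes were lower) and 1 was higher (3.88% of all genes). The members' median log2 fold change was -0.31, beside -0.00 over all genes.

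Hspa5 was 306 and 358 CPM in mutant OB-like cells and 408 and 429 in controls, and it fell by 0.37 ± 0.0854 on the log2 scale (SE, adjusted p = 0.0229). Manf was 187 and 237 against 291 and 297 CPM, and it fell by 0.50 ± 0.0989 (adjusted p = 0.00868). Creld2 was 20.4 and 23.3 against 35.9 and 38.1 CPM, and it fell by 0.79 ± 0.146 (adjusted p = 0.0057). Both mutant libraries were below both controls for each of these genes. The share of all genes without overlap was not counted in any class. In fibroblast-like cells 8 of 10 members did not overlap although 0 were called. Sdf2l1, at 10.2 and 8.19 against 13.5 and 20.9 CPM, had a log2 fold change of -0.96 ± 0.293 that missed the threshold (adjusted p = 0.0786). Hsp90b1, the ER member of the HSP90 family, was 288 and 298 against 344 and 343 CPM and missed it narrowly (-0.27, adjusted p = 0.0553), and Pdia4 (-0.34) and Xbp1 (-0.28) missed it as well. Of 16 alternative settings, 7 called Hsp90b1 as lower and 4 each called Sdf2l1 and Xbp1. Pdia4 stood at -0.62 (adjusted p = 0.00274) without mutant replicate 2 and at -0.14 without mutant replicate 1.

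Ddit3 was 66.7 and 45.9 CPM in mutant OB-like cells against 33.5 and 27.3 in controls, a log2 fold change of 0.82 ± 0.164 (adjusted p = 0.00958). Atf4 was 183 and 187 against 183 and 177 CPM with a log2 fold change of 0.00 ± 0.0797, and Dnajb9 overlapped at 47.4 and 63.9 against 49.9 and 50.1. Median UMIs per OB-like cell were 11179 and 14589 in mutants against 17325.5 and 18424.5 in controls, and the summed level of 5 hypertrophic zone markers was 421 and 172 against 75.4 and 87.6 CPM. Their part in the result was not tested. Hspa5 was no longer called without control replicate 1 (log2 fold change -0.40, adjusted p = 0.122) or control replicate 2 (-0.35, 0.225), and Creld2 missed the threshold with DESeq2 (0.0776).

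**Figure D2:**
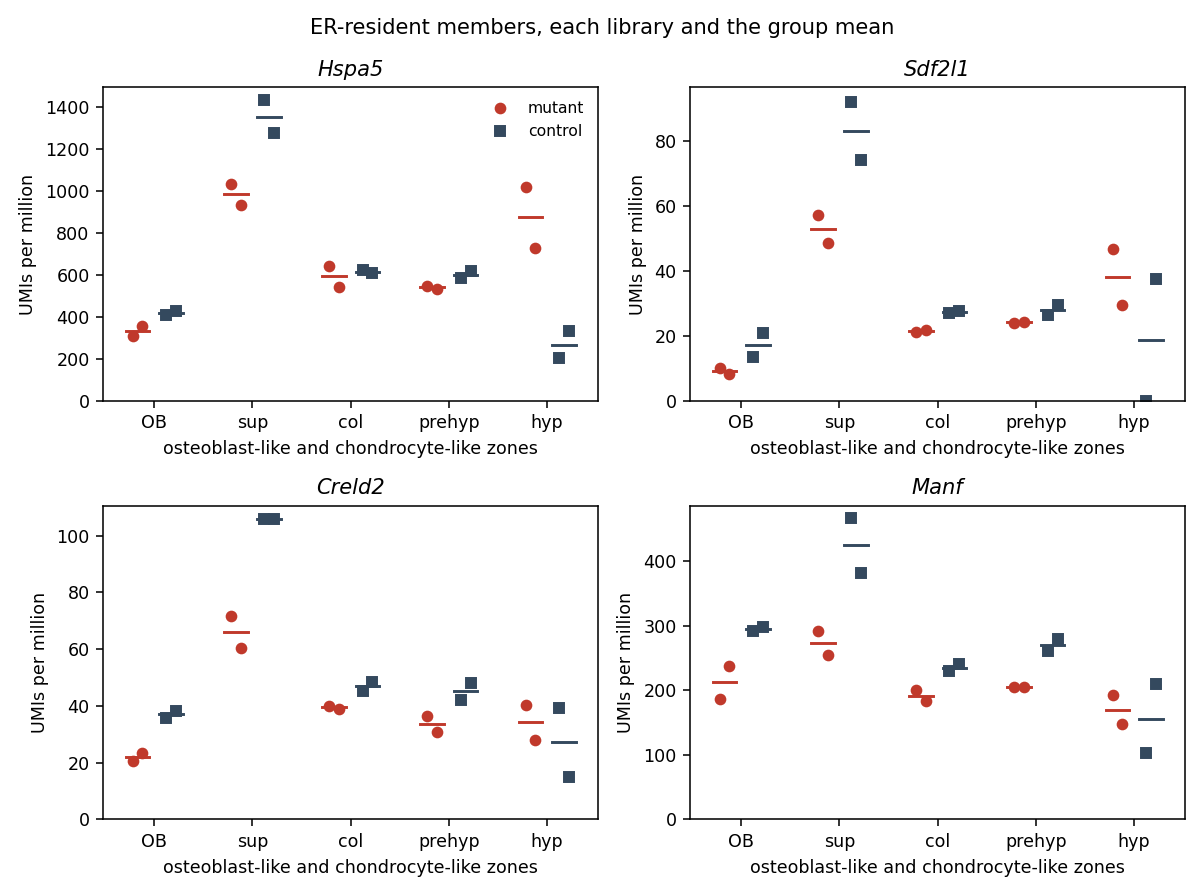
CPM of Hspa5, Sdf2l1, Creld2 and Manf in OB-like cells and the 4 chondrocyte-like zones (sup, superficial; col, resting and columnar; prehyp, prehypertrophic; hyp, hypertrophic), with points for the 2 mutant (red circles) and 2 control (dark squares) libraries and bars for group means. In OB-like and superficial-like cells both mutant points lie below both control points, and in the hypertrophic-like zone Hspa5 is at 1019 and 729 in mutants against 204 and 331 in controls.

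Superficial-like CHOs had 5 members lower in mutants (1.86% of all genes were lower) and 1 higher (2.83% of all genes). Of the Leiden clusters assigned to this class, cluster 0 held 276 and 347 mutant against 112 and 142 control cells, cluster 1 held 103 and 136 against 111 and 133, and cluster 26 held 102 and 107 against 100 and 82. The part of this in the result was not tested. Hspa5 was 1034 and 930 CPM against 1431 and 1274 in controls and fell by 0.41 ± 0.0847 on the log2 scale (adjusted p = 0.0134). Creld2 was 71.7 and 60.3 against 106 in both controls and fell by 0.64 ± 0.102 (adjusted p = 0.0035). Manf was 292 and 255 against 467 and 382 CPM and fell by 0.58 ± 0.102 (adjusted p = 0.00571). Sdf2l1, at 57.1 and 48.7 against 91.9 and 74.1 CPM, fell by 0.60 (adjusted p = 0.0131), and Hsp90b1, at 639 and 608 against 797 and 777, fell by 0.28 (adjusted p = 0.0454). None of these groups overlapped, but the share of all genes without overlap was not counted. Ddit3 was 103 and 91.8 CPM in mutant superficial-like CHOs against 74.1 and 79.8 in controls (log2 fold change 0.38 ± 0.0976, adjusted p = 0.0416). Atf4 had lower values in mutants, at 207 and 203 against 246 and 234 CPM, without passing the test (adjusted p = 0.229). The members' median was -0.25 beside -0.00 over all genes. The 6 called members became 1 without mutant replicate 1 and 0 without mutant replicate 2, in edgeR with 1 mutant library left. Without mutant replicate 1 the fold changes of Hspa5 (-0.49, adjusted p = 0.0975), Sdf2l1 (-0.72, 0.0628) and Manf (-0.69, 0.0537) were larger in size although they missed the threshold. Without mutant replicate 2 the fold change of Creld2 was -0.51 (adjusted p = 0.0599) and that of Manf -0.48 (0.106), so the direction stayed. DESeq2 called 3 members. The Ddit3 call was lost in 9 of 16 alternatives, among them library totals alone (0.33, adjusted p = 0.0756), doublets removed (0.34, 0.0753) and without control replicate 1 (0.33, 0.0759).

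Of the 10 members, 1 was higher in resting and columnar-like CHOs (13.7% of all genes) and the others did not pass the test, while 9.85% of all genes were lower. Cells were also grouped without the gates into Leiden clusters, each assigned to a class by its markers. Of those assigned to this class, cluster 19 held 28 and 19 mutant against 240 and 223 control cells, and clusters 2 (267 and 317 against 132 and 168) and 10 (217 and 251 against 117 and 135) held more mutant cells. The part of this in the result was not tested. Dnajb9 was 82.3 and 72.1 CPM in mutants against 50.7 and 43.8 in controls, a log2 fold change of 0.81 ± 0.0937 (adjusted p = 6.54e-05). Both mutant libraries were above both controls, but the share of all genes without overlap was not counted. Hspa5 was 643 and 543 against 621 and 608 CPM and overlapped (0.05 ± 0.071), and Creld2, at 40.1 and 38.8 against 45.4 and 48.5, missed the threshold (-0.15, adjusted p = 0.279). Ddit3 was 81.8 and 84.8 against 99.8 and 93.7 CPM (-0.11, adjusted p = 0.277). The call of Dnajb9 was lost without control replicate 1 (adjusted p = 0.176) or control replicate 2 (0.189), with fold changes of 0.90 and 0.71. With library totals alone 4 members were called, since Manf (-0.29), Sdf2l1 (-0.35) and Ddit3 (-0.21) then passed as lower. Manf also passed as lower under other settings, among them Leiden clusters (-0.21, adjusted p = 0.0219), doublets removed (-0.22, 0.0231) and genes in 20% of cells (-0.19, 0.0351).

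Prehypertrophic-like CHOs had 3 members higher (15.3% of all genes) and 2 lower (13% of all genes). Of the Leiden clusters assigned to this class, clusters 17 (251 and 250 mutant against 46 and 60 control cells) and 28 (138 and 135 against 1 and 2) were mostly mutant, and cluster 18 (44 and 47 against 278 and 276) was mostly control. The part of this in the result was not tested. Dnajb9 was 83.6 and 70.5 CPM in mutants against 43.7 and 49.7 in controls (log2 fold change 0.78 ± 0.105, adjusted p = 4.10e-04). Atf4 was 157 in both mutants against 131 and 129 CPM (0.33 ± 0.0605, adjusted p = 0.0027), and Ddit3 was 84.9 and 80.6 against 65 and 68.1 (0.37 ± 0.0741, adjusted p = 0.00441). Both mutant libraries were above both controls for all 3, but the share of all genes without overlap was not counted. Manf was 205 in both mutants against 260 and 279 CPM and fell by 0.34 (adjusted p = 0.00352), and Creld2 was 36.4 and 30.9 against 42.1 and 48.1 and fell by 0.37 (adjusted p = 0.0327). Hspa5, at 545 and 534 against 584 and 616 CPM, did not pass (-0.10, adjusted p = 0.264). The lower call of Creld2 in prehypertrophic-like CHOs was lost without mutant replicate 2 (log2 fold change -0.25, adjusted p = 0.138), without control replicate 2 (-0.25, 0.135), with DESeq2 (0.192) and without the gene filter (0.154). The Ddit3 call was lost when Leiden clusters set the classes, where its fold change was 0.14, with a wider hypertrophic gate on Col10a1 (0.23, adjusted p = 0.0889) and without the gene filter (0.0589).

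**Figure D3:**
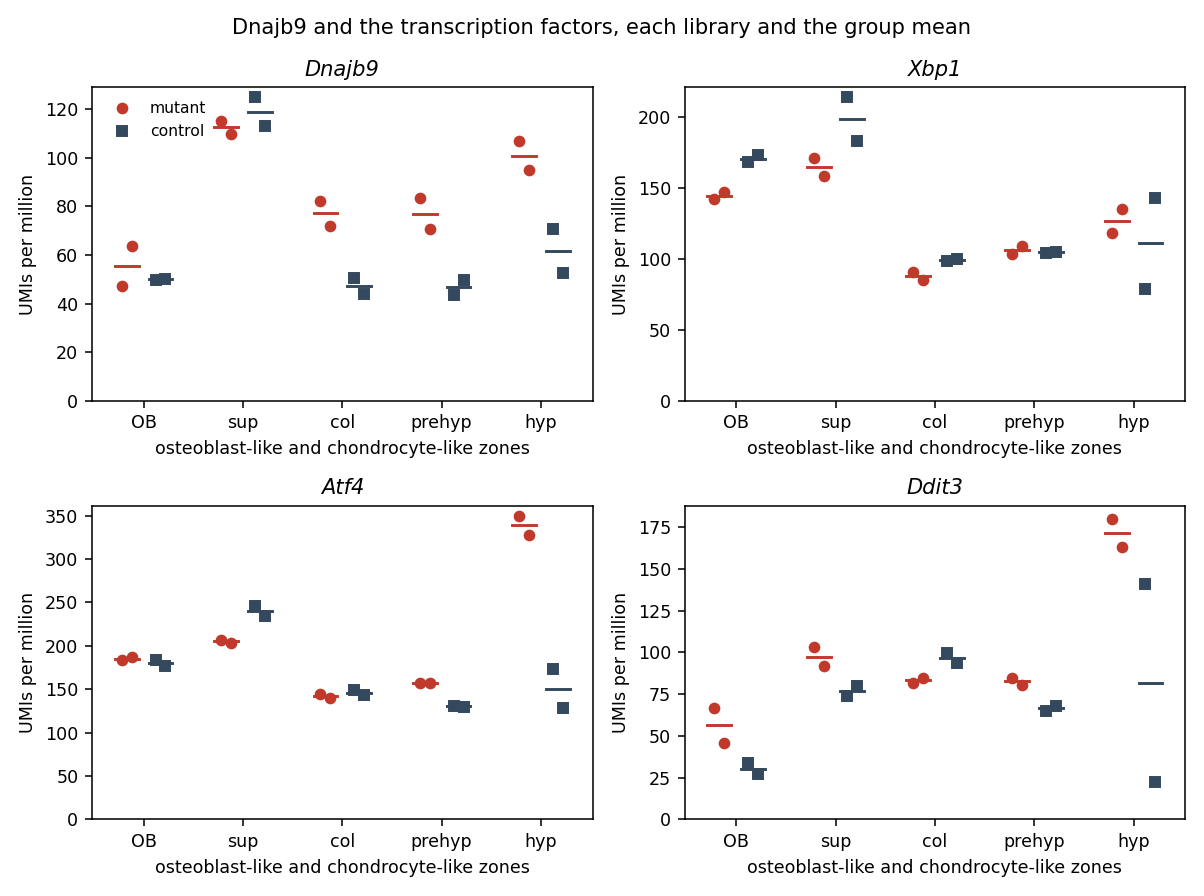
CPM of Dnajb9, Xbp1, Atf4 and Ddit3 in OB-like cells and the 4 chondrocyte-like zones (sup, superficial; col, resting and columnar; prehyp, prehypertrophic; hyp, hypertrophic), with points for the 2 mutant (red circles) and 2 control (dark squares) libraries and bars for group means. Dnajb9 lies higher in both mutants in the columnar-like and prehypertrophic-like zones, and Ddit3 in OB-like, superficial-like and prehypertrophic-like cells. Both also lie higher in both mutants in the hypertrophic-like zone, where neither was called.

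In hypertrophic-like CHOs 3 members were higher (5.79% of all genes) and the others did not pass, while 4.43% of all genes were lower. Hspa5 was 1019 and 729 CPM in mutants against 204 and 331 in controls (log2 fold change 1.79 ± 0.327, adjusted p = 0.00392). Hsp90b1 was 615 and 535 against 126 and 308 CPM (1.47 ± 0.353, adjusted p = 0.0187), and Atf4 was 350 and 327 against 173 and 128 (1.27 ± 0.262, adjusted p = 0.00814). The median over all genes was itself 0.17 in this class. The 2 groups of cells also differed in bone matrix genes, with osteopontin, Spp1, at 5137 and 9532 CPM in mutants against 55628 and 87146 in controls (-3.22) and osteocalcin, Bglap, at 93 and 72.8 against 340 and 430 (-2.12). Their part in the result was not tested. Leiden cluster 4, the cluster assigned to this class, held 618 and 649 mutant cells against 1 and 3 control cells. With 11 control cells per library, 1 control sum held 26 UMIs of Hspa5. The median mitochondrial share was 0.351% and 0.386% in these mutant cells and 4.41% and 4.04% in the controls, and its part in the result was not tested. Without mutant replicate 1 none of the 3 calls remained in edgeR, with fold changes and adjusted p of 1.46 and 0.152 for Hspa5, 1.30 and 0.223 for Hsp90b1, and 1.18 and 0.259 for Atf4. Without mutant replicate 2 those of Hsp90b1 (1.52, adjusted p = 0.11) and Atf4 (1.31, 0.175) were lost, and without the gene filter no member was called. Without control replicate 1 the fold changes of Hspa5 and Hsp90b1 were 1.47 and 0.97, and without control replicate 2 they were 2.38 and 2.47. Hsp90b1 was also not called with DESeq2 (adjusted p = 0.145), library totals alone (0.057) or doublets removed (0.067).

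A wider gate, taken after the counts of cells were seen, counted every CHO-like cell with at least 2000 CPM of Col10a1, the collagen gene of the hypertrophic zone, as hypertrophic. This gate held 529 and 515 mutant and 150 and 159 control cells and called 5 members, all higher, while 16.7% of all genes were higher and 14.6% lower. Hspa5 was 691 and 560 CPM in mutants against 403 and 447 in controls (log2 fold change 0.58 ± 0.116, adjusted p = 0.00621), and Hsp90b1 was 454 and 415 against 307 and 333 (0.46, adjusted p = 0.00614). Atf4 was 248 and 226 against 116 and 121 CPM (1.02 ± 0.0938, adjusted p = 8.63e-05), and Ddit3 was 142 and 123 against 63.1 and 65.6 (1.06 ± 0.109, adjusted p = 1.62e-04). Dnajb9, at 112 and 85.2 against 50.4 and 57.6 CPM, was also higher (0.89, adjusted p = 0.0031). Creld2 and Manf did not pass, with fold changes of 0.04 and -0.16. The wider gate thus gave smaller fold changes for Hspa5, Hsp90b1 and Atf4 than the marker gate, and the median mitochondrial share of its mutant cells was 0.788% and 0.974%, against 4.2% and 4.19% in controls.

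**Figure D4:**
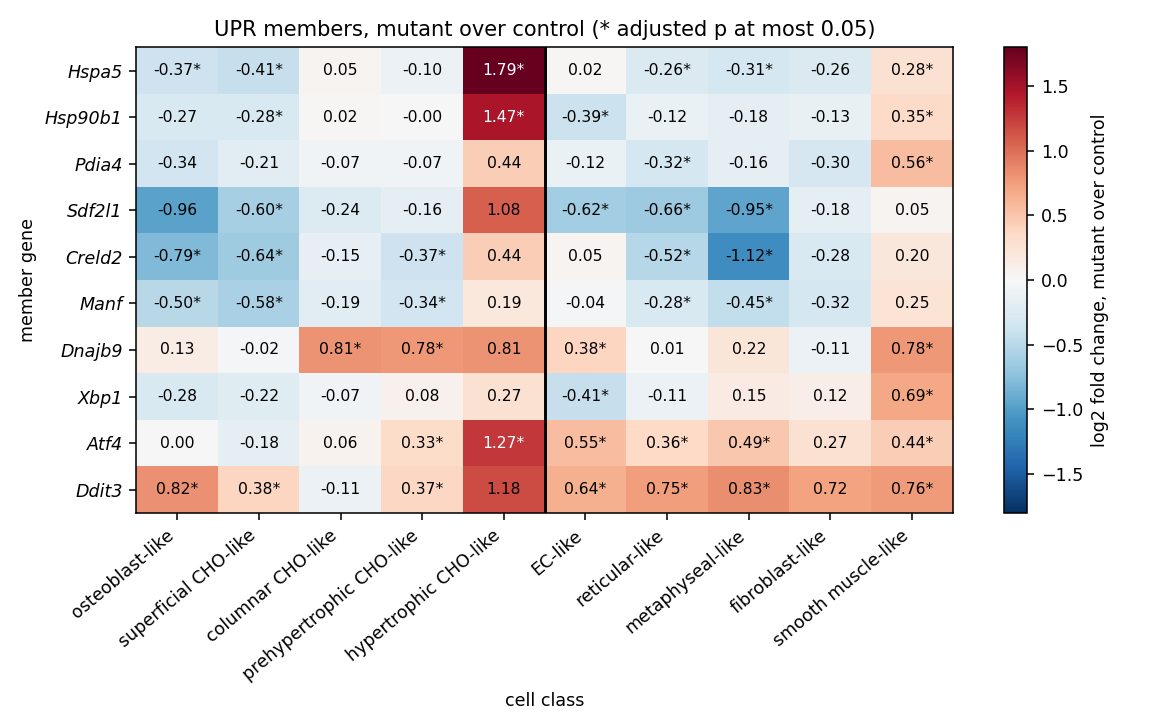
Log2 fold changes of mutant over control for the 10 members (rows) in the 10 classes (columns), with colour and number giving the value and a star an adjusted p of at most 0.05. The matrix-secreting classes stand left of the black line. Creld2 and Manf carry stars with negative values in 5 classes each, and Ddit3 carries stars with positive values in 7 classes. In single classes 1% to 18.3% of all genes were higher and 0.561% to 16.9% lower.

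All 10 classes come from the same 4 libraries, so that calls in different classes are not independent of each other. In single classes 1% to 18.3% of all genes were higher and 0.561% to 16.9% lower. The share of all genes called in as many classes as a member was not counted. Ddit3 was called higher in 7 classes, Atf4 in 6 and Dnajb9 in 4, and none of these 3 was called lower in edgeR with TMM scaling and the class gates as described. With library totals alone Ddit3 passed as lower in resting and columnar-like CHOs. Creld2 and Manf were called lower in 5 classes each and Sdf2l1 in 4, and under the same settings none of them was called higher. Manf was called higher in smooth muscle-like cells with doublets removed (0.35, adjusted p = 0.0176). Without control replicate 2, Manf (1.01, adjusted p = 0.0411) and Sdf2l1 (adjusted p = 0.00801) were called higher in hypertrophic-like CHOs, against the single control sum of 11 cells that was left. Hspa5 was lower in 4 classes (OB-like, superficial-like, reticular-like and metaphyseal-like) and higher in 2 (hypertrophic-like and smooth muscle-like). Hsp90b1 was likewise called in both directions, higher in 2 classes and lower in 2, and Xbp1 and Pdia4 were each higher in 1 and lower in 1.

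The 5 other classes give the same members outside OB-like and CHO-like cells. Matrix-secreting is used here only as a name for the OB-like and CHO-like classes. In controls fibroblast-like cells had the highest means of Hsp90b1, Sdf2l1, Manf and Dnajb9, overlapping with superficial-like CHOs for Sdf2l1 and Dnajb9. In reticular-like cells 5 members were lower (9.97% of all genes) and 2 higher (11.8% of all genes). Leiden cluster 6 of this class held 332 and 382 mutant against 35 and 41 control cells, and cluster 23 held 27 and 39 against 477 and 421. Hspa5 there was 829 and 850 CPM in mutants against 1037 and 1035, and Ddit3 was 128 and 118 against 78.3 and 71.6 (log2 fold change 0.75, adjusted p = 3.05e-05). In metaphyseal-like cells 4 were lower (3.57% of all genes) and 2 higher (5.72% of all genes), with Creld2 at 19.3 and 25.3 against 46.2 and 53.3 CPM (-1.12, adjusted p = 0.00447). None of the calls in metaphyseal-like cells passed with DESeq2 (adjusted p for Creld2 0.104).

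In EC-like cells, the recombined class, 3 members were higher (18.3% of all genes) and 3 lower (16.9% of all genes). Atf4 was 162 and 161 CPM against 112 and 122 (log2 fold change 0.55, adjusted p = 3.17e-04), whereas Xbp1 was 170 and 179 against 234 and 259 (-0.41, adjusted p = 0.00213). Leiden clusters 35 (48 and 47 mutant against 254 and 230 control cells) and 30 (62 and 65 against 216 and 229) of this class held fewer mutant cells. Clusters 8 (124 and 185 against 71 and 61) and 29 (137 and 176 against 91 and 84) held more. Smooth muscle-like cells had 7 members higher (15.1% of all genes), while 13.7% of all genes were lower, and Xbp1 was 121 and 117 against 79.3 and 72.5 CPM (0.69, adjusted p = 9.47e-05). DESeq2 called 3 of these 7, and Hspa5 (adjusted p = 0.0825), Pdia4 (0.153), Dnajb9 (0.0669) and Atf4 (0.0855) missed its threshold. Leiden cluster 7 of this class held 238 and 293 mutant against 2 and 5 control cells, and the part of such clusters in these results was not tested. In fibroblast-like cells 0 members were called by edgeR, where 1% of all genes were higher and 0.561% lower, and 0 by DESeq2. At an unadjusted p under 0.05 there were 5 of 10, beside 15.1% of all genes.

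Whether the change of a member in a matrix-secreting class differed from its mean change in the 5 other classes was tested in one fit over all libraries. In OB-like cells 2 members differed, against 3.05% of all genes. Atf4 differed by -0.47 ± 0.0944 on the log2 scale (adjusted p = 0.00382) and Xbp1 by -0.42 ± 0.116 (adjusted p = 0.0415). With library totals alone neither passed (adjusted p = 0.0532 and 0.245), and neither did without mutant replicate 1 (0.152 and 0.221), mutant replicate 2 (0.0726 and 0.191) or control replicate 1 (0.107 and 0.155). The lower Hspa5 (-0.31, adjusted p = 0.252), Creld2 (-0.50, 0.205) and Manf (-0.38, 0.149) of OB-like cells were not shown to differ from the other classes in this fit. With Leiden clusters in place of the gates, 6 members differed in OB-like cells, but the share of all genes was not counted under this setting.

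In superficial-like CHOs 1 member differed, Atf4 by -0.56 ± 0.0932 (adjusted p = 3.46e-04), against 3.17% of all genes. In resting and columnar-like CHOs 3 differed, against 7.2% of all genes. Ddit3 stood at -0.81 ± 0.122 (adjusted p = 3.48e-05), Atf4 at -0.32 ± 0.0914 (adjusted p = 0.0284) and Dnajb9 at 0.60 ± 0.117 (adjusted p = 0.001). The difference of Atf4 did not pass without mutant replicate 1 (adjusted p = 0.181), mutant replicate 2 (0.306) or control replicate 1 (0.32), and that of Dnajb9 did not without control replicate 2 (0.133). In prehypertrophic-like CHOs 1 differed, Dnajb9 by 0.55 ± 0.111 (adjusted p = 0.00105), against 9.79% of all genes, though not without control replicate 1 (adjusted p = 0.121).

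In hypertrophic-like CHOs 3 differed, against 6.51% of all genes, with Hspa5 at 2.10 ± 0.216, Hsp90b1 at 1.78 ± 0.22 and Atf4 at 1.05 ± 0.186. The median over all genes of this contrast was 0.68, and relative to it the values were 1.42, 1.11 and 0.38. With the Col10a1 gate the differences were 0.75, 0.62 and 0.66, and without control replicate 1 those of Hspa5 and Hsp90b1 were 1.71 and 1.17. The fit assumes that sums of 11 cells vary beyond counting error like sums of many more cells.

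The members were set beside 7 lists of related genes, described by counts and medians. The list of the ATF4 and CHOP branch holds 27 targets and partners, among them Atf3, Trib3, the asparagine synthetase gene Asns and amino acid transporters. In OB-like cells 3 of 24 tested were higher (3.88% of all genes) and 2 lower (1.38% of all genes), with a median of 0.06. In superficial-like CHOs 1 of 25 was higher (2.83% of all genes) and 2 lower (1.86%), with a median of -0.07. In resting and columnar-like CHOs 11 of 23 were higher (median 0.33), where 13.7% of all genes were higher, and in prehypertrophic-like CHOs 19 of 26 (median 0.78), where 15.3% of all genes were. The 19 include Trib3 and Chac1, which were tested only because of their mutant counts. Over all 7 lists, the 63 genes called in resting and columnar-like CHOs became 0 in edgeR without either control replicate, whereas the 78 in prehypertrophic-like CHOs ranged from 66 to 75 without any 1 library. In superficial-like CHOs the 23 called became 8 without mutant replicate 1, 12 without mutant replicate 2 and 43 without control replicate 2, and in OB-like cells the 32 became 54 without mutant replicate 2. In fibroblast-like cells 0 of 21 passed in edgeR. In EC-like cells 14 of 24 were higher (18.3% of all genes) and 1 lower, and in reticular-like cells 14 of 24 (11.8%) and 0 lower. In metaphyseal-like cells 7 of 21 were higher (5.72% of all genes) and 1 lower, and in smooth muscle-like cells 10 of 20 (15.1%) and 1 lower.

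Atf5, an ATF-family transcription factor, was 78.7 and 90.9 CPM in mutant prehypertrophic-like CHOs against 18.4 and 17.3 in controls (log2 fold change 2.30, adjusted p = 2.00e-07). Chac1, which degrades glutathione, was 3.22 and 5.01 against 0.833 and 1.07 CPM (2.15, adjusted p = 0.00246), and Trib3, a pseudokinase induced by ATF4 and CHOP, was 3.99 and 6.91 against 0 and 0.597. Control sums held only 7 and 9 UMIs of Chac1 and 0 and 5 of Trib3, and both were tested only because of their mutant counts. Named list genes were chosen among those with both mutant libraries on the same side of both controls, so this separation is not a result. In resting and columnar-like CHOs Vldlr, a lipoprotein receptor gene, was 17.2 and 16 against 3.88 and 5.35 CPM (1.94), and Cebpb, which encodes a partner of CHOP, was 118 and 115 against 54.6 and 50.5 (1.26). In OB-like cells Atf3 was 112 and 123 against 44.6 and 48.1 CPM (1.30), while the serine synthesis genes Psat1 (-0.77) and Phgdh (-0.62) were lower.

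In hypertrophic-like CHOs 19 of 26 genes of this branch were higher and 1 was lower, with a median of 2.85 beside 0.17 over all genes. Of the 26, 9 were at 0 in both control sums and were tested only because of their mutant counts, and 8 of these 9 are among the 19 called higher. Of the 17 genes above 0 in controls, 11 were higher and 1 lower. How many of these 17 were also tested only because of their mutant counts was not counted. For the genes at 0 a floor of 3 counts over the control group (11.5 CPM) gives a bound, and the median with those genes at their bound was 1.89. The 49 genes called over all lists in this class became 14 without mutant replicate 1, 20 without mutant replicate 2 and 0 without the gene filter. Against the floor of 3 counts, Vldlr was at least 9.7-fold, Asns at least 6.22-fold and Trib3 at least 5.61-fold higher in mutants. This floor allows for counting error only, not for the spread between cells or libraries. With the Col10a1 gate 22 of 26 were higher (16.7% of all genes) and 1 lower (14.6%), with a median of 1.63 beside 0.00 over all genes. Among the 22, at least Trib3 (0 and 1.51 CPM in controls) and Slc7a11 (0.392 and 1.13) were tested only because of their mutant counts. The same held for Chac1 (0.392 and 2.64), Phgdh (2.35 and 1.51) and Gdf15 (5.88 and 0). With this gate Eif4ebp1, a brake on translation that ATF4 raises, was 139 and 125 CPM against 14.5 and 17.7 (log2 fold change 3.05), and Asns was 39.6 and 39.7 against 8.23 and 8.66 (2.24).

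**Figure D5:**
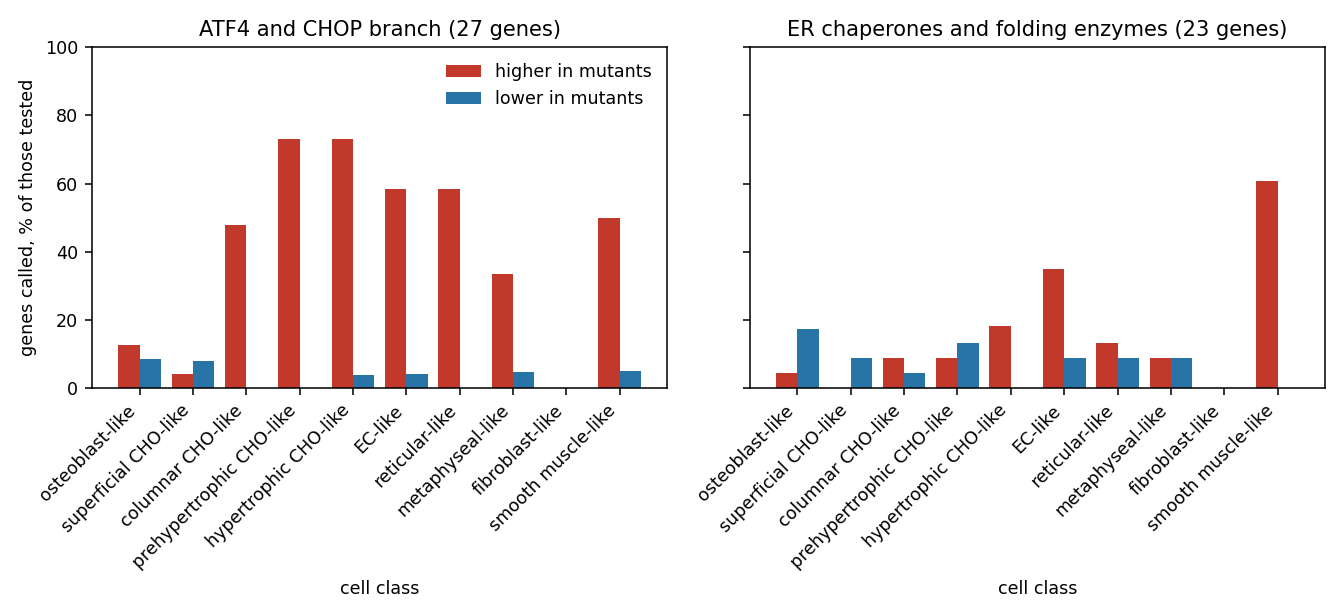
Share of tested genes called higher (red) or lower (blue) in mutants in each class, for the ATF4 and CHOP branch (left) and the ER chaperones and folding enzymes (right). The left share stands at 3 of 24 genes higher in OB-like and 1 of 25 in superficial-like cells and is 19 of 26 in prehypertrophic-like CHOs. Those 19 include Trib3 and Chac1, which were tested only because of their mutant counts. The left share is also 19 of 26 in hypertrophic-like CHOs, but there 8 of the 19 were at 0 in both control sums, so that this bar is not comparable with the others.

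The list of ER chaperones and folding enzymes holds 23 genes besides the members. In OB-like cells 4 were lower (1.38% of all genes) and 1 higher (3.88%), with a median of -0.08. The calreticulin gene Calr was 289 and 302 CPM against 396 and 374 and fell by 0.42 (adjusted p = 0.00569), and the BiP cofactor genes Dnajb11 and Dnajc3 fell by 0.51 and 0.34. Ero1a, the oxidase that regenerates disulfide isomerases, was higher, at 15.6 and 18.8 against 9.95 and 10.1 CPM (0.75). In superficial-like CHOs 2 were lower (1.86% of all genes), Hyou1 at 20.2 and 18.4 against 36.3 and 34.5 CPM (-0.83) and the calnexin gene Canx (-0.34). Ero1a was also higher in resting and columnar-like CHOs (0.99) and in prehypertrophic-like CHOs, where it was 66.4 and 71.1 against 22.4 and 19.3 CPM (1.78, adjusted p = 7.69e-07). Of the 23, 2 were higher (13.7% of all genes) and 1 lower (9.85%) in the former zone, and 2 were higher (15.3%) and 3 lower (13%) in the latter, so that the higher calls were no more frequent than over all genes. In hypertrophic-like CHOs 4 of 22 tested were higher (5.79% of all genes) and 0 lower (4.43%). Among the 4, at least Ero1a, with 0 and 2 UMIs in the control sums, was tested only because of its mutant counts. The median was 0.61, or 0.54 with genes at 0 in controls set to their bound, beside 0.17 over all genes. With the Col10a1 gate 4 were higher (16.7% of all genes) and 2 lower (14.6%), with a median of 0.01. In EC-like cells 8 of 23 were higher (18.3% of all genes) and 2 lower (16.9%), and in smooth muscle-like cells 14 of 23 were higher (15.1% of all genes).

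Of the 10 genes of stress sensors and their processing, 1 was higher and 1 lower in OB-like cells, 2 of 9 tested were higher and 1 lower in resting and columnar-like CHOs, and 3 of 9 were higher and 2 lower in prehypertrophic-like CHOs. Over all genes 13.7% were higher and 9.85% lower in resting and columnar-like CHOs, 15.3% and 13% in prehypertrophic-like CHOs, and 3.88% and 1.38% in OB-like cells. In superficial-like and hypertrophic-like CHOs 0 of 9 sensor genes were called, with medians of -0.11 and -0.61 beside -0.00 and 0.17 over all genes. With the Col10a1 gate 1 of 9 was higher (16.7% of all genes) and 3 lower (14.6%), with a median of -0.34. Atf6, the sensor cut in the Golgi, was higher in OB-like cells at 55.4 and 50 CPM against 37.1 and 36.8 (log2 fold change 0.46), in resting and columnar-like CHOs (0.71) and in prehypertrophic-like CHOs (0.52). Ern1, which encodes IRE1, was 71.4 and 70.6 against 45.6 and 46.9 CPM in resting and columnar-like CHOs (0.72) and higher in prehypertrophic-like CHOs (0.41). Creb3l1, another transmembrane factor, was also higher in prehypertrophic-like CHOs (0.32), while Eif2ak3, which encodes PERK, fell by 0.40 there and Mbtps2, a protease that cuts ATF6, fell by 0.62. Mbtps1, the other such protease, fell by 0.41 in resting and columnar-like CHOs. Creb3l3, a transmembrane factor related to ATF6, was lower in OB-like cells at 18.3 and 22.9 against 35.3 and 37.6 CPM (-0.84). Of 17 tested genes of ER-associated degradation, 1 was lower in OB-like cells (1.38% of all genes) and 2 in superficial-like CHOs (1.86%). In resting and columnar-like CHOs 1 was lower (9.85%), in prehypertrophic-like CHOs 3 (13%), and in hypertrophic-like CHOs 1 was higher (5.79%). Sel1l, an adaptor of the HRD1 ligase, was lower in OB-like cells (-0.59), superficial-like CHOs (-0.42) and prehypertrophic-like CHOs (-0.26). Herpud1, of the same list, was lower in superficial-like CHOs (-0.46). It was higher in hypertrophic-like CHOs, at 174 and 176 CPM against 70.7 and 45.1 (1.70).

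Carriers of translocation and ER-to-Golgi transport (37 genes) had 1 lower in OB-like cells (1.38% of all genes) and 2 lower in superficial-like CHOs (1.86%). In resting and columnar-like CHOs 9 were lower (9.85% of all genes) and 4 higher (13.7% of all genes), and in prehypertrophic-like CHOs 14 were lower (13%) and 2 higher (15.3%). Serpinh1, the collagen chaperone HSP47, was 1281 CPM in both mutants against 1841 and 1943 in resting and columnar-like CHOs (-0.46) and 1332 and 1262 against 1890 and 1956 in prehypertrophic-like CHOs (-0.51). In hypertrophic-like CHOs 4 of 37 were higher (5.79% of all genes) and 0 lower (4.43%), with a median of 0.33 beside 0.17 over all genes. With the Col10a1 gate 5 were higher (16.7% of all genes) and 12 lower (14.6%), with a median of -0.12.

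Secreted matrix cargo (24 genes, some of which served to gate the classes) moved in both directions. In OB-like cells 5 were higher (3.88% of all genes) and 4 lower (1.38%). The osteocalcin gene Bglap, a gate marker, was at 76715 and 78782 CPM against 101025 and 99262 (-0.41) and osteopontin, Spp1, at 4968 and 3776 against 1509 and 1690 (1.41). In prehypertrophic-like CHOs 7 were higher (15.3% of all genes) and 10 lower (13%), with Col11a2 at 1861 and 1832 CPM against 3373 and 3400 (-0.82). Resting and columnar-like CHOs had 8 higher (13.7% of all genes) and 12 lower (9.85%), and superficial-like CHOs 6 (2.83%) and 4 (1.86%). Hypertrophic-like CHOs had 0 higher (5.79% of all genes) and 10 lower (4.43%).

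Heat shock genes of the cytosol and early genes of tissue dissociation (15 genes) include Fos and Junb, which are known to rise while tissue is dissociated. In OB-like cells 9 of 15 were higher (3.88% of all genes), with Junb at 486 and 403 CPM against 146 and 152 (1.53) and Fos at 1079 and 890 against 424 and 428 (1.16). In superficial-like CHOs 1 was higher (2.83% of all genes) and 3 lower (1.86%), with Hspa1a at 119 and 125 against 198 and 243 CPM (-0.80). Resting and columnar-like CHOs had 6 higher (13.7% of all genes) and 6 lower (9.85%) and prehypertrophic-like CHOs 8 (15.3%) and 5 (13%). Hspa1b, a cytosolic HSP70 gene, was at 104 and 110 against 384 and 348 CPM (-1.67) in the former. Hypertrophic-like CHOs had 9 higher (5.79% of all genes) and 1 lower (4.43%). Reticular-like cells had 10 higher (11.8% of all genes) and metaphyseal-like cells 11 (5.72%). The part of these genes in the change of Ddit3 was not tested.

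Finally, the genes whose level over the 40 class sums (10 classes in 4 libraries) was most like that of Hspa5 were listed among 3454 genes with a mean of at least 50 CPM. Likeness was Pearson's r of log2(CPM + 1), which describes sums that share libraries and is given with no test. Hsp90b1 came first with r = 0.94, followed by Magt1 (0.88), Pdia3 (0.87), Calr (0.85) and Pdia4 (0.83). Abi3bp, Mgat2 and Tm2d2 followed, each at 0.83.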

How the data were processed

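Unfiltered matrices of expected counts of UMIs (not whole where a read fits several genes) were deposited, made by the authors with cutadapt 3.5 and STARsolo 2.7.10a on mm39 with a GENCODE annotation extended by transgene sequences. Cells needed 1000 UMIs, 800 genes, at most 15% mitochondrial and 5% hemoglobin counts and a complexity of 0.8. Classes were set by marker scores, not by the authors' annotation, so they may differ from the study's, and doublets were removed only as an alternative. Counts were summed per library and class, rounded, and tested with edgeR 4.0.16 (quasi-likelihood, TMM scaling, filterByExpr, Benjamini-Hochberg over all genes tested). One joint fit over classes, with library effects, tested differences between classes. With 2 libraries per group an exact permutation test cannot go below 0.333. On simulated data with known changes, 48.5% of genes changed by 1 and 12% of those changed by 0.5 on the log2 scale were recovered in OB-like sums (12436 genes tested), and 76% and 21.3% in prehypertrophic-like sums (14351). The simulation gave all genes the same set variation beyond counting error, not estimated from these sums. It changed random genes of any level, so these shares do not give the power for the members. Hypertrophic-like sums were not simulated. DESeq2 1.42.0 and other settings were alternatives. Members, lists and the rule for named genes were chosen with earlier results of these data known. The rule took up to 3 called genes per direction, list and class with the largest change. Only genes with both mutant libraries on the same side of both controls could be taken. Free RNA was estimated from barcodes of at most 100 UMIs.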

Additional observations from a re-analysis of the deposited data

Results flagged for a closer look

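Differences between a matrix-secreting class and the mean of the 5 other classes, tested as an interaction in edgeR, drew attention to 10 results, given here as log2 differences. In single classes 3.05% to 9.79% of all genes differed in this test. Atf4 stood at -0.47 in OB-like cells (adjusted p = 0.00382), -0.56 in superficial-like CHOs (3.46e-04), -0.32 in resting and columnar-like CHOs (0.0284) and 1.05 in hypertrophic-like CHOs (1.75e-04). Xbp1 stood at -0.42 in OB-like cells (adjusted p = 0.0415). Ddit3 stood at -0.81 (adjusted p = 3.48e-05) and Dnajb9 at 0.60 (0.001) in resting and columnar-like CHOs, and Dnajb9 at 0.55 in prehypertrophic-like CHOs (0.00105). Hspa5 stood at 2.10 (adjusted p = 9.01e-09) and Hsp90b1 at 1.78 (3.89e-07) in hypertrophic-like CHOs, where each control sum held 11 cells, and with the Col10a1 gate they stood at 0.75 and 0.62, and Atf4 at 0.66. The median over all genes was 0.68 in that class, and relative to it Hspa5 stood at 1.42, Hsp90b1 at 1.11 and Atf4 at 0.38. The results in OB-like and prehypertrophic-like cells did not pass in every fit without 1 library. The same held for Atf4 and Dnajb9 in resting and columnar-like CHOs.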

How the results depend on the processing

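Of the 45 calls on members between genotypes, recomputed 690 times over all alternatives, 609 stayed called in the same direction, 81 missed the threshold and 0 changed direction. Where values moved, the cause was not tested. The share of all genes called was not counted under the alternatives, except between genotypes with the Col10a1 gate. DESeq2 called 20 of the listed genes in OB-like cells (32 in edgeR) and 9 in superficial-like CHOs (23), and 3 members in superficial-like CHOs (6), 0 in metaphyseal-like cells (6) and 3 in smooth muscle-like cells (7). Without the gene filter 8 members were called in OB-like cells (4), 3 in prehypertrophic-like CHOs (5) and 0 in hypertrophic-like CHOs (3), with 50, 31, 46 and 0 listed genes in OB-like, resting and columnar-like, prehypertrophic-like and hypertrophic-like cells (32, 63, 78 and 49), and interactions gave 5 members in OB-like (2) and 2 in superficial-like cells (1). Library totals alone gave 4 members in resting and columnar-like CHOs (1), 1 in fibroblast-like cells (0), 0 interactions in OB-like cells (2), 2 in prehypertrophic-like CHOs (1) and 9 class differences there (5), and RLE factors left 1 interaction in OB-like cells. Leiden clusters gave 38 listed genes in superficial-like CHOs, 2 members in resting and columnar-like CHOs, 1 in fibroblast-like cells, and 6, 5 and 2 interactions in OB-like, superficial-like and prehypertrophic-like cells. Removing doublets, or testing only genes in 20% of cells, gave 2 members in resting and columnar-like CHOs. The Col10a1 gate, chosen after seeing the data, gave 5 members and 90 listed genes in hypertrophic-like CHOs, 5 interactions and 7 class differences there, and 2 interactions in prehypertrophic-like CHOs.

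Replicate numbers did not pair the samples, with correlations of deviations between -0.04 and 0.108 and only 2 pairs. The replicate block gave 35 listed genes in superficial-like CHOs, 2 members in resting and columnar-like CHOs, 1 member and 26 listed genes in hypertrophic-like CHOs, where Hsp90b1 (1.56, adjusted p = 0.0863) and Atf4 (1.28, 0.0751) missed the threshold, and 1 member in fibroblast-like cells.

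Leaving out 1 library gave 3 to 7 members in OB-like cells, 0 to 7 in superficial-like, 0 to 2 in resting and columnar-like and 0 to 5 in hypertrophic-like CHOs, 2 to 6 in metaphyseal-like and 0 to 1 in fibroblast-like cells. Listed genes ranged from 24 to 54, 8 to 43, 0 to 69 and 14 to 68 in the first 4 of these classes, and interactions from 0 to 2 in OB-like, 1 to 2 in superficial-like and 0 to 1 in prehypertrophic-like cells. With 1 library left in a group, that library is assumed to vary like the others.

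Class differences in controls reversed with library totals alone for Pdia4 (-0.42), Creld2 (-0.11) and Dnajb9 (-0.21) in OB-like cells and Manf (-0.05) in resting and columnar-like CHOs. The other reversals were of values that were not called with TMM scaling and the class gates. With library totals alone, Hspa5 (-0.05), Hsp90b1 (-0.08) and Atf4 (-0.04) reversed in resting and columnar-like CHOs, Hspa5 (-0.06) and Creld2 (-0.03) in EC-like cells and Dnajb9 (-0.03) in reticular-like cells. Without the gene filter Atf4 in OB-like cells (-0.07), Hsp90b1 in resting and columnar-like CHOs (-0.03) and Dnajb9 in reticular-like cells (-0.04) reversed. With Leiden clusters this held for Dnajb9 (-0.05) and Atf4 (-0.01) in OB-like cells, Hspa5 (-0.03), Hsp90b1 (-0.04) and Xbp1 (0.08) in resting and columnar-like CHOs, Hsp90b1 in prehypertrophic-like CHOs (0.01), Hspa5 in EC-like (-0.03), Dnajb9 in reticular-like (-0.05) and Sdf2l1 in smooth muscle-like cells (-0.04). With doublets removed it held for Atf4 in OB-like cells (-0.01), Hsp90b1 in resting and columnar-like CHOs (-0.04), Hspa5 (-0.03) and Creld2 (-0.09) in EC-like cells and Dnajb9 in reticular-like cells (-0.03), and with free RNA subtracted for Atf4 in OB-like (-0.01) and Dnajb9 in reticular-like cells (-0.01). Hsp90b1 in prehypertrophic-like CHOs was 0.00 with DESeq2 and RLE factors, 0.02 for genes in 20% of cells and 0.01 with the UMI and gene minimum only, where Atf4 in OB-like cells was -0.01. Sdf2l1 in smooth muscle-like cells was -0.00 with a stricter cell filter, and Manf in hypertrophic-like CHOs was -0.16 with the Col10a1 gate.

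Leaving out 1 library also moved values through 0 that were not called with all libraries. In OB-like cells it took Dnajb9 from -0.15 to 0.33 and Atf4 from -0.04 to 0.03. In superficial-like cells it took Dnajb9 from -0.11 to 0.05. In resting and columnar-like cells it took Hspa5 from -0.08 to 0.16, Hsp90b1 from -0.01 to 0.05 and Pdia4 from -0.16 to 0.01. In prehypertrophic-like cells it took Hsp90b1 from -0.04 to 0.03 and Pdia4 from -0.20 to 0.05. In hypertrophic-like cells it took Manf from -0.25 to 1.01 and Xbp1 from -0.11 to 0.96, and Manf was called at 1.01, without control replicate 2. In EC-like cells it took Hspa5 from -0.07 to 0.10, Creld2 from -0.15 to 0.20 and Manf from -0.15 to 0.05. In reticular-like cells it took Dnajb9 from -0.14 to 0.15. In metaphyseal-like cells it took Xbp1 from -0.01 to 0.32. In fibroblast-like cells it took Sdf2l1 from -0.41 to 0.04. In smooth muscle-like cells it took Sdf2l1 from -0.11 to 0.24. Depth limits hypertrophic-like CHOs most, where both control sums together held 260339 UMIs.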
